A study of Homo sapiens with 6 samples.

Results

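The genes described here are 10 genes of prostaglandin synthesis, breakdown and reception, out of 38557 gene rows in the deposited count files. They are the cyclooxygenases PTGS1 and PTGS2, the terminal synthases PTGIS, PTGES, PTGES2 and PTGDS, the breakdown enzyme HPGD, and the receptors PTGER2, PTGER4 and PTGFR. All 10 symbols were found in all 6 files. The set was chosen by the level of PTGIS, selected on its difference between the culture media in these same libraries, so PTGIS is described with no test. RNA had been sequenced from cardiomyocytes made from the WTC11 line of human induced pluripotent stem cells, labelled WT, in 2 media: RPMI plus B27 (B27 being a serum-free supplement) and DMEM plus fatty acids. Each medium had 3 libraries, labelled biological replicates 1 to 3. The labels give neither the full composition of the media nor the time spent in them, no treatment is listed, and all libraries come from the same line. Nothing in the labels says that the replicates came from separate differentiations, so p values measure the spread between these libraries.

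Prostaglandins are lipid signals made from arachidonic acid. Phospholipases free the acid from membranes, cyclooxygenases turn it into the unstable intermediate prostaglandin H2, and terminal synthases turn that into prostacyclin (PTGIS), prostaglandin E2 (PTGES and, in part, PTGES2) or prostaglandin D2 (PTGDS). The products leave the cell, act on G protein-coupled receptors, and are inactivated inside cells by the dehydrogenase HPGD. In the heart and vessels, prostacyclin is best known as a vasodilator that also restrains platelets, made by endothelial, smooth muscle and stromal cells.

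Gene counts per library ran from 23232324 to 31035389, and 16107 genes passed the filter on low counts and were tested. Values below are counts per 1000000 counts (CPM) scaled between libraries by the trimmed mean of M values (TMM), on the linear scale, and fold changes are log2 values with their standard errors (SE), negative where the level was lower in DMEM plus fatty acids. A gene is called where its adjusted p is under 0.05 (edgeR quasi-likelihood test, Benjamini-Hochberg over all tested genes). A count of 0 in a library allows up to 0.0889 to 0.129 CPM, depending on the library, and this limit covers counting error only. All 12 cardiomyocyte markers were tested and TNNT2, the cardiac troponin T gene, stood at 3185 ± 138 CPM (SD, n = 3) in RPMI plus B27 and 3549 ± 616 CPM (SD, n = 3) in DMEM plus fatty acids, so the defining markers of the labelled cell type were present in both media.

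Of the 10 genes, 8 passed the filter and 2, PTGER2 and PTGER4, did not. PTGS1, PTGS2 and PTGES had single-digit counts in most DMEM plus fatty acids libraries and passed through their RPMI plus B27 libraries, so no count over the genes that passed is read as support. The same holds for PTGIS and, in the lists below, for CCL2, IL11, MMP1, PLA2G4A, ALOX15, CYSLTR2, SLCO2A1, DCN, EMCN and TEK. Each of these had under 10 counts in 1 or more DMEM plus fatty acids libraries. The 3 libraries of each medium did not overlap for 5 of the 10 genes, where 25.6% of all tested genes did not. PTGIS, PTGS1, PTGS2 and PTGES were lower in every DMEM plus fatty acids library (4 genes, where 12.8% of all tested genes were lower without overlap), and PTGFR was higher in every one (1 gene, where 12.8% were higher without overlap). Of the 7 tested genes other than PTGIS, 0 were called, where 1.36% of all tested genes were (1.07% lower in DMEM plus fatty acids and 0.292% higher). At an unadjusted p under 0.05 there were 5 of the 7 (17.7% of all tested genes), the DESeq2 Wald test called 4 (PTGS1, PTGS2, PTGES and PTGFR, where it called 7.52% of all genes), and an edgeR fit blocked on the replicate number called 2 (PTGS2 and PTGFR), where that fit called 4.78% of all genes (3.42% lower and 1.36% higher). Since the rule used this comparison, nothing is read from these shares. In these bulk libraries, fewer cells of a type and less RNA per cell cannot be told apart, which holds for every difference below.

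**Figure D1:**
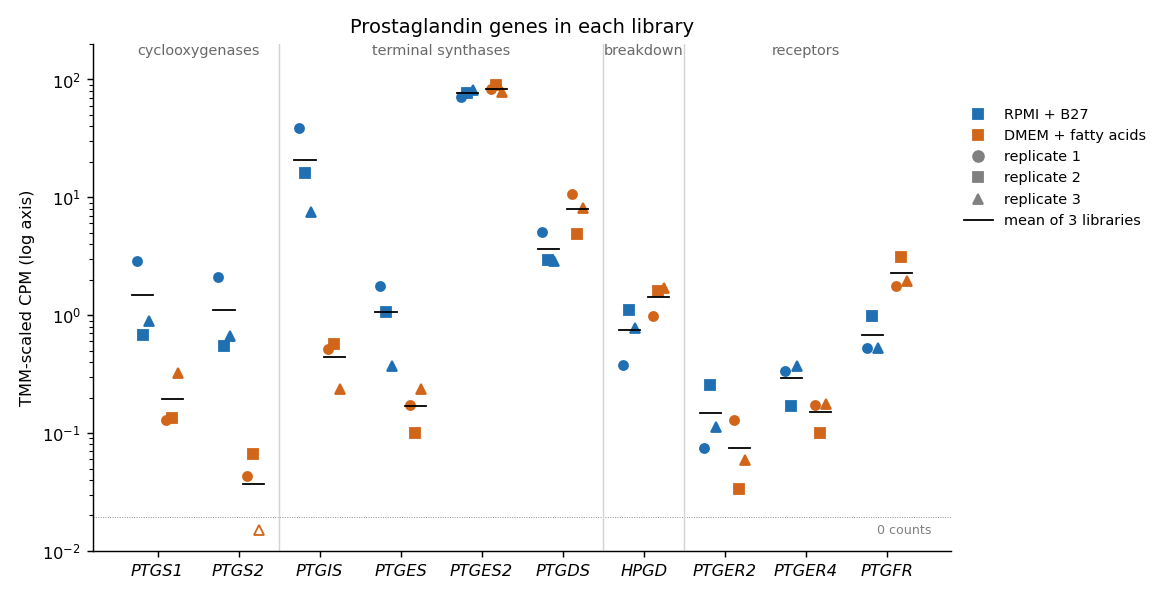
TMM-scaled CPM of the 10 genes on a log axis, 1 point per library (blue, RPMI plus B27; orange, DMEM plus fatty acids; shapes mark replicates; bars are means of 3 libraries). PTGS1, PTGS2, PTGIS and PTGES lie lower in all 3 DMEM plus fatty acids libraries, PTGFR lies higher, PTGES2 stays between 71.5 and 89.1 CPM, and the open triangle is the library with 0 PTGS2 counts.

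Both cyclooxygenases were scarce, with lower values in every DMEM plus fatty acids library. PTGS1, the constitutive form (chr9:122370530-122395703, plus strand, GRCh38), had 2.90, 0.681 and 0.895 CPM in RPMI plus B27 replicates 1, 2 and 3 and 0.129, 0.134 and 0.326 CPM in DMEM plus fatty acids replicates 1, 2 and 3. Replicate 1 stood above the other RPMI plus B27 libraries, and the media did not overlap. The log2 fold change was -2.86 ± 0.71 (SE), or -1.94 ± 0.51 without RPMI plus B27 replicate 1, and the gene was not called (adjusted p 0.105, 0.00744 to 0.287 over its 11 alternatives). PTGS2, the form induced by growth factors and inflammatory signals (chr1:186671791-186680427, minus strand), had 2.11, 0.553 and 0.671 CPM in RPMI plus B27 against 0.0431, 0.0669 and 0 CPM in DMEM plus fatty acids. These were 56, 13 and 18 counts against 1, 2 and 0, so RPMI plus B27 replicate 1 again stood highest and the DMEM plus fatty acids libraries were at or near the detection limit. Over each medium this was 87 counts against 3, a depth-corrected ratio of 32.8 with an exact 95% interval of 10.8 to 162.0 that covers counting error only. Its fitted log2 fold change was -4.83 ± 0.91, with an adjusted p of 0.0583 without and 0.0260 with the replicate block (0.000760 to 0.157 over its 11 alternatives). Within a library, PTGS2 made up 42.1%, 44.8% and 42.9% of the cyclooxygenase counts in RPMI plus B27 (of 133, 29 and 42 counts, with Wilson 95% intervals of 34.1% to 50.6%, 28.4% to 62.5% and 29.1% to 57.8%). In DMEM plus fatty acids it was 25.0% of 4 counts (4.56% to 69.9%), 33.3% of 6 counts (9.68% to 70.0%) and 0 of 11 counts, which allows a share of up to 27.3%. At 4 and 6 counts, a difference from RPMI plus B27 in this share was not detectable. The limit of 27.3% in DMEM plus fatty acids replicate 3 stands for 3 of 11 counts and is not a Wilson bound, which was 25.9%. Both lay below the RPMI plus B27 intervals, the lowest of which began at 28.4%. That rests on 1 library and was not tested.

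The stretches upstream of the RefSeq start sites of the 4 genes other than PTGIS whose media did not overlap are shown. They are from RefSeq (GRCh38.p14), bases 250 to 11 before the annotated start, on the gene's own strand, and capitals mark 3 motifs on either strand, namely the TATA box letters TATAAA, the GC box letters GGGCGG, and the letters CGTCA at the core of the cyclic AMP response element.
PTGS2 (chr1:186680434-186680673, minus strand): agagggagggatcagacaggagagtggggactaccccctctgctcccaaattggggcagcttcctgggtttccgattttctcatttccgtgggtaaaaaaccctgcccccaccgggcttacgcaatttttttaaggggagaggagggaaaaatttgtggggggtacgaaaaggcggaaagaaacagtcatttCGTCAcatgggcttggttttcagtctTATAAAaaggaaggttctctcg
PTGS1 (chr9:122370283-122370522, plus strand, the first of its 2 entries): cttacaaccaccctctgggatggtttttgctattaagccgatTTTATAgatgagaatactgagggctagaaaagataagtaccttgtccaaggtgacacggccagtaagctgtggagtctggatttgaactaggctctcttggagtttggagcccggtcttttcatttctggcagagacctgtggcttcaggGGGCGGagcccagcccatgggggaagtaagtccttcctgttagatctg
PTGES (chr9:129753053-129753292, minus strand): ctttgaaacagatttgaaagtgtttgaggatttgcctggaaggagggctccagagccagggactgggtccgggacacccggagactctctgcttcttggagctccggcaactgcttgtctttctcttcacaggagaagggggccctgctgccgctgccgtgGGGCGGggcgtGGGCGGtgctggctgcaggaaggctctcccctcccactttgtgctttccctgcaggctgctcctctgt
PTGFR (chr1:78490724-78490963, plus strand): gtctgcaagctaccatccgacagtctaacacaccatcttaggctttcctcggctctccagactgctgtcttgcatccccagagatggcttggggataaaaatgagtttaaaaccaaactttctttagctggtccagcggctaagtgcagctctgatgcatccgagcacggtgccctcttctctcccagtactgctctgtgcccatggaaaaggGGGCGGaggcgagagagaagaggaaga
The PTGS2 window holds TATAAA at bases 32 to 27 before the start and CGTCA at bases 58 to 54. Over 35116 windows of the same kind, 10.6% hold TATAAA and 20.5% hold CGTCA on either strand. The PTGS1 window has TATAAA only on the opposite strand and far from the start, at bases 208 to 203. GGGCGG was found once in the PTGS1 and PTGFR windows and at 2 places in the PTGES window, and is in 41.4% of all windows. None of the 9 windows examined held the full cyclic AMP response element TGACGTCA, which contains the core above and is in 1.57% of all windows. None held the E-box letters CACGTG, found in 6.01% of all windows, or the TEAD site letters GGAATG, found in 11.5%. None held the AP-1 site letters TGANTCA, found in 6.43%. A loose kappa B-like pattern (GGG, any 5 bases, then CC, which can overlap the GC box) was in 7 of the 9 windows, all but those of PTGES2 and PTGFR, and in 52.8% of all windows. Of the 10 genes, 9 had an entry and PTGIS had none. The PTGFR window lies well inside the gene's GENCODE span (chr1:78303884-78539749), so its RefSeq start is not the GENCODE start. The PTGDS, HPGD and PTGER4 windows also lie within their GENCODE spans. Which starts these cells used is not known. The windows of PTGS1, PTGS2, PTGFR and PTGES held 49.6%, 50.0%, 52.9% and 61.3% G and C, and those of the 5 genes whose media overlapped held 68.3% to 75.0%, beside a median of 57.9% over all windows. This difference was noticed after the values were seen and was not tested.

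PTGIS, the cytochrome P450 enzyme that makes prostacyclin (chr20:49503874-49568146, minus strand, with no other GENCODE gene overlapping it), had the largest difference of the set. It had 38.6, 16.0 and 7.46 CPM in RPMI plus B27 replicates 1, 2 and 3 and 0.517, 0.568 and 0.237 CPM in DMEM plus fatty acids replicates 1, 2 and 3, which were 1025, 376 and 200 counts against 12, 17 and 8. The lowest RPMI plus B27 library was 13.1 times the highest DMEM plus fatty acids library. The RPMI plus B27 libraries also differed 5.18-fold among themselves, with replicate 1 highest and replicate 3 lowest, and replicate 3 was lowest in DMEM plus fatty acids too. The means were 20.7 ± 16.1 and 0.441 ± 0.178 CPM (SD, n = 3 each), a fitted log2 fold change of -5.56 ± 0.72 (SE), and 6 of the 16107 tested genes had a lower one. Without RPMI plus B27 replicate 1 it was -4.74 ± 0.49.

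Of the other terminal synthases, PTGES had lower values in DMEM plus fatty acids, PTGDS had higher ones and PTGES2 had overlapping values. PTGES, the inducible membrane-bound prostaglandin E synthase that works with PTGS2 (chr9:129738331-129753047, minus strand), had 1.77, 1.06 and 0.373 CPM in RPMI plus B27 and 0.172, 0.100 and 0.237 CPM in DMEM plus fatty acids. The order of the RPMI plus B27 libraries was that of PTGIS, and the media did not overlap, with 10 counts in the lowest RPMI plus B27 library and 8 in the highest DMEM plus fatty acids library. The log2 fold change of -2.61 ± 0.65 was not called (adjusted p 0.108, 0.0198 to 0.293 over its 11 alternatives). PTGDS, the lipocalin-type prostaglandin D synthase (chr9:136975092-136981742, plus strand), had 5.09, 2.94 and 2.87 CPM in RPMI plus B27 and 10.7, 4.88 and 8.18 CPM in DMEM plus fatty acids. It was higher in DMEM plus fatty acids within each of the 3 replicate numbers, although RPMI plus B27 replicate 1 lay above DMEM plus fatty acids replicate 2, and its log2 fold change of 1.12 ± 0.37 was not called (adjusted p 0.182). PTGES2, the more widely expressed membrane-associated synthase (chr9:128120693-128128462, minus strand), had 71.5, 77.3 and 81.8 CPM against 82.7, 89.1 and 78.7 CPM. Its media overlapped and its log2 fold change was 0.12 ± 0.11 (adjusted p 0.613). With PTGS1, these 3 synthases make 4 of the 10 genes on chromosome 9.

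Counted per kilobase of exon, the 4 terminal synthases among the 10 genes divided differently in the media. Their sum leaves out synthases outside the 10 genes. Of those, PTGES3 had 59.3 and 55.5 and AKR1B1 39.4 and 32.8 CPM per kilobase (means in RPMI plus B27 and DMEM plus fatty acids). PTGIS made up 20.8%, 9.57% and 4.53% of their summed level per length in RPMI plus B27 and 0.295%, 0.326% and 0.146% in DMEM plus fatty acids. PTGES2 made up 70.7% to 91.2% and 86.8% to 93.7%, ranges that overlap, and PTGDS 3.59% to 5.64% and 5.76% to 12.6%. These shares contain the PTGIS values by which the set was chosen and were not tested.

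HPGD, the dehydrogenase that starts the breakdown of prostaglandins (chr4:174490177-174523154, minus strand), had 0.377, 1.11 and 0.783 CPM in RPMI plus B27 and 0.990, 1.61 and 1.69 CPM in DMEM plus fatty acids. It was higher in DMEM plus fatty acids within each replicate number, the media overlapped, and the log2 fold change of 0.93 ± 0.45 was not called (adjusted p 0.333) and was 0.61 ± 0.38 without RPMI plus B27 replicate 1.

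Among the receptors, PTGFR was the one whose media did not overlap. PTGFR, the prostaglandin F2 alpha receptor, which couples to Gq (chr1:78303884-78539749, plus strand), had 0.527, 0.979 and 0.522 CPM in RPMI plus B27 and 1.77, 3.11 and 1.96 CPM in DMEM plus fatty acids, that is 14, 23 and 14 counts against 41, 93 and 66. Replicate 2 was highest in both media. Its log2 fold change was 1.76 ± 0.40, with an adjusted p of 0.0864 without and 0.0317 with the replicate block (0.00642 to 0.258 over its 11 alternatives). PTGER2 and PTGER4, receptors for prostaglandin E2 that couple to Gs and raise cyclic AMP, were near the detection limit. PTGER2 (chr14:52314305-52328606, plus strand) had 2, 6 and 3 counts in RPMI plus B27 and 3, 1 and 2 in DMEM plus fatty acids. PTGER4 (chr5:40679498-40693735, plus strand) had 9, 4 and 10 counts against 4, 3 and 6. Both overlapped between media, and a difference was not detectable at this depth. PTGER4 also overlaps TTC33 on the opposite strand, which had 589 to 876 counts per library, so reads in the shared stretch are uncertain because the strand setting of the counting is not given.

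Ordered by level per length (CPM per kilobase of exon), PTGES2 came first in both media, at 25.3 ± 1.70 in RPMI plus B27 against 27.5 ± 1.73 in DMEM plus fatty acids, apart from the next gene in every library. In RPMI plus B27 the order went on with PTGIS (3.71 ± 2.89), PTGDS (1.34 ± 0.465), PTGES (0.564 ± 0.369), PTGS1 (0.258 ± 0.212), PTGS2 (0.211 ± 0.165), PTGFR (0.143 ± 0.0556), HPGD (0.137 ± 0.0661), PTGER4 (0.0742 ± 0.0274) and PTGER2 (0.0596 ± 0.0385). Below PTGES2, only PTGDS and PTGES were neighbours whose 3 libraries did not overlap. In DMEM plus fatty acids PTGDS came second (2.92 ± 1.08), followed by PTGFR (0.483 ± 0.154), HPGD (0.258 ± 0.0690), PTGES (0.0896 ± 0.0361) and PTGIS (0.0790 ± 0.0319). PTGDS, PTGFR and HPGD were each apart from the next gene in every library, whereas PTGES, PTGIS, PTGER4 (0.0379 ± 0.0109), PTGS1 (0.0339 ± 0.0194) and PTGER2 (0.0299 ± 0.0200) ran into each other, and PTGS2 was last (0.00696 ± 0.00643). PTGIS thus held second place in one medium and sixth in the other.

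**Figure D2:**
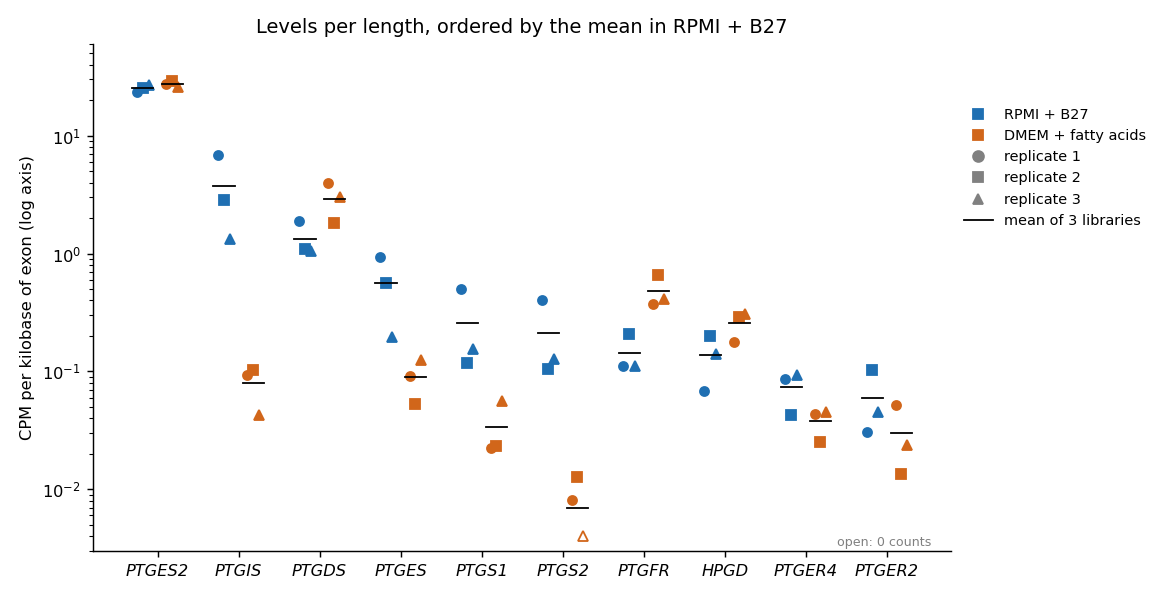
TMM-scaled CPM per kilobase of exon (GENCODE release 29, all exons of a gene merged) on a log axis, with genes ordered by their mean in RPMI plus B27 and 1 point per library. PTGIS moves from 3.71 to 0.0790 and PTGES2 stays at 25.3 and 27.5 (means of 3 libraries).

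The other genes of the pathway were read from lists made by function. For every list here and below, the shares to set beside its counts are those over all tested genes. They were 1.36% called, 17.7% at an unadjusted p under 0.05, 7.52% called by DESeq2 and 4.78% called with the replicate block. Of 7 further prostanoid synthases and reductases, 5 were tested and 0 called, with a median log2 fold change of -0.09 beside 0.01 over all tested genes, and 0 had an unadjusted p under 0.05 (DESeq2 also called 0). PTGES3, the cytosolic synthase and Hsp90 co-chaperone, was the most abundant of them per length at 59.3 ± 4.90 and 55.5 ± 4.59, and its processed pseudogenes can take some of its reads. AKR1B1, an aldose reductase that can form prostaglandin F2 alpha, had a log2 fold change of -0.27 ± 0.24 (adjusted p 0.612). CBR1, a carbonyl reductase, had -0.23 ± 0.24 (adjusted p 0.660), and AKR1C3, a prostaglandin F synthase whose close paralogs make its counts uncertain, 0.89 ± 0.63 (adjusted p 0.503, with log2 fold changes of 0.47 to 1.76 when single libraries were dropped). The thromboxane synthase TBXAS1 had 16, 7 and 5 counts in RPMI plus B27 and 0, 5 and 8 in DMEM plus fatty acids, too few to be tested.

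Of 7 other receptor genes and partners, 2 were tested and 0 called (1 at an unadjusted p under 0.05, 1 by DESeq2). PTGER3, the prostaglandin E2 receptor that couples mainly to Gi and lowers cyclic AMP, had 4.07, 5.57 and 2.27 CPM in RPMI plus B27 and 74.3, 27.7 and 14.4 CPM in DMEM plus fatty acids. Every DMEM plus fatty acids library was above every RPMI plus B27 library, and replicate 1 was well above the others. The log2 fold change was 3.29 ± 0.64, with an adjusted p of 0.0610 without and 0.0186 with the replicate block (7.34e-07 to 0.158 over its 11 alternatives), and it was 2.41 without DMEM plus fatty acids replicate 1. Per length, PTGER3 stood at 4.02 ± 3.26 in DMEM plus fatty acids and 0.412 ± 0.171 in RPMI plus B27, the highest mean of the prostanoid receptors in both media. PTGIR, the prostacyclin receptor, had 4, 8 and 3 counts in RPMI plus B27 and 0, 1 and 1 in DMEM plus fatty acids. PTGDR had 0 counts in all 6 libraries. PTGFRN, a membrane protein that binds the PTGFR receptor, had a log2 fold change of -0.18 ± 0.18.

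Of 6 transport and breakdown genes, 5 were tested and 0 called (1 at an unadjusted p under 0.05, 0 by DESeq2). ABCC4, an exporter of prostaglandins, had a log2 fold change of 0.59 ± 0.23 (adjusted p 0.244), and SLCO2A1, the importer, -1.78 ± 0.91 (adjusted p 0.357). SLCO2A1 stood at 4.14 CPM in RPMI plus B27 replicate 3 and at 0.829 and 0.553 CPM in the others, and its log2 fold change was -0.37 without that library and -2.88 without DMEM plus fatty acids replicate 3. ZADH2, a prostaglandin reductase, had 0.26 ± 0.13 (adjusted p 0.348). Of 17 genes that release or recycle arachidonic acid, 15 were tested and 0 called (4 at an unadjusted p under 0.05, 2 by DESeq2), with a median of 0.07. The cytosolic phospholipases differed in sign. PLA2G4A, the form that frees arachidonic acid when calcium rises, had 0.904, 0.425 and 0.708 CPM in RPMI plus B27 and 0.0861, 0.201 and 0.207 CPM in DMEM plus fatty acids (log2 fold change -1.98 ± 0.48, adjusted p 0.101). PLA2G4C, a calcium-independent form, had 10.9, 13.2 and 12.1 CPM against 22.6, 24.0 and 18.4 CPM (0.85 ± 0.17, adjusted p 0.0640 without and 0.0387 with the replicate block, 0.000842 to 0.221 over its 11 alternatives). Neither overlapped between media. LPCAT3, which puts arachidonic acid back into phospholipids, had 0.95 ± 0.24 (adjusted p 0.107). Of 18 genes of the lipoxygenase and epoxygenase branches, 14 were tested and 0 called (4 at an unadjusted p under 0.05, 1 by DESeq2), with a median of 0.14. EPHX2, the soluble epoxide hydrolase, had 0.66 ± 0.16 (adjusted p 0.103, or 0.0315 when blocked on the replicate number, and 0.0164 to 0.289 across 11 alternatives), and ALOX15, a lipoxygenase, -1.83 ± 0.48 (adjusted p 0.120). CYSLTR2, a leukotriene receptor, had -1.17 ± 0.37 (adjusted p 0.172).

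**Figure D3:**
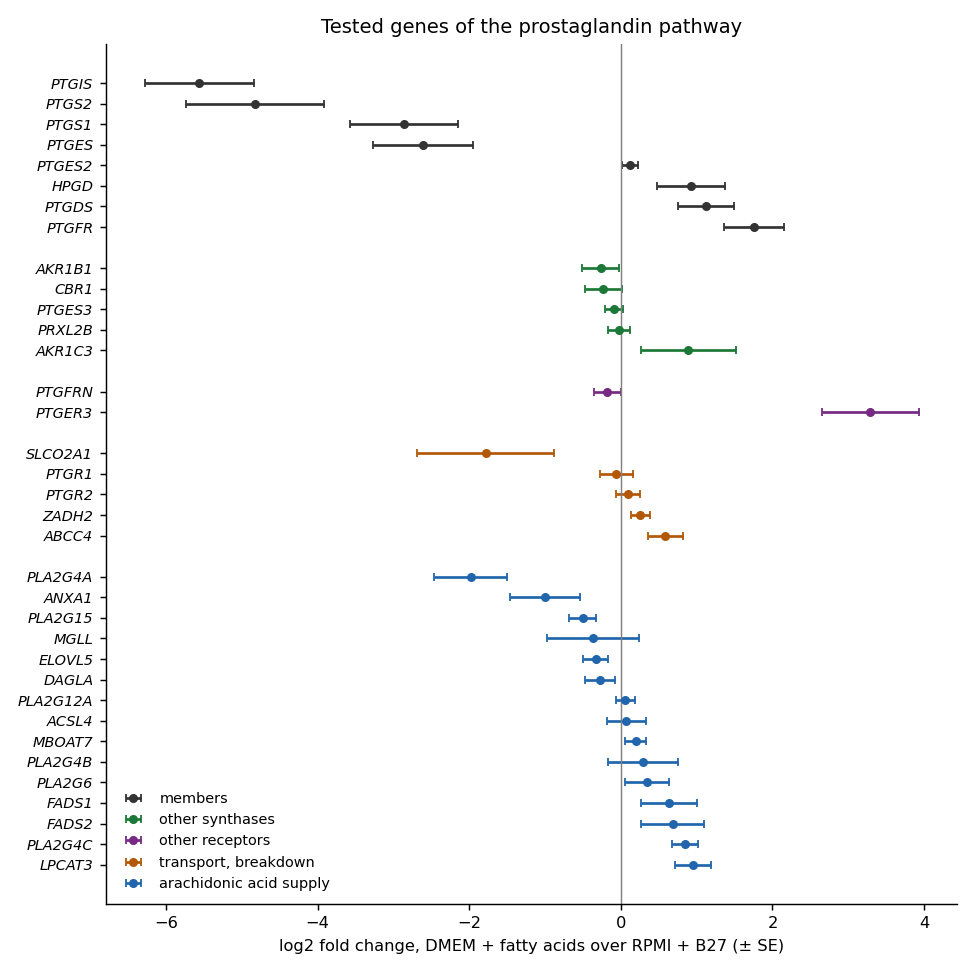
Fitted log2 fold change with its SE (negative, lower in DMEM plus fatty acids) for tested genes, coloured by list and ordered within each. The lists are the 10 genes, further synthases, other receptors, transport and breakdown, and arachidonic acid release and recycling. The lipoxygenase and epoxygenase list is not drawn. PTGIS, PTGS2, PTGS1 and PTGES lie from -5.56 to -2.61, PTGER3 lies at 3.29, and the further synthases lie between -0.27 and 0.89.

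Of 14 inflammatory genes often induced together with PTGS2, 7 were tested, and 3 had an unadjusted p under 0.05 (17.7% of all tested genes). The fit with the replicate block called 2, both lower (3.42% of all tested genes were called lower). The main fit called 1, where 1.36% of all tested genes were called. It was CCL2, a monocyte-attracting chemokine, at 3.75 ± 0.623 and 0.366 ± 0.148 CPM in RPMI plus B27 and DMEM plus fatty acids (SD, n = 3 each, log2 fold change -3.36 ± 0.39, adjusted p 0.0256). CCL2 had 115, 90 and 83 counts against 9, 15 and 7 and passed the filter through RPMI plus B27, so its call is not read as support. CCL2 kept its call, at an adjusted p of 0.0410, when replicate 3 of RPMI plus B27 was dropped and lost it without replicate 1 or 2 of RPMI plus B27 (0.0543 and 0.0958) or replicate 1, 2 or 3 of DMEM plus fatty acids (0.0800, 0.0698 and 0.0743), at log2 fold changes of -3.67 to -3.05. IL11, a cytokine of activated stromal cells, had 1.92, 1.19 and 0.634 CPM in RPMI plus B27 and 0.215, 0.0669 and 0.0889 CPM in DMEM plus fatty acids (-3.36 ± 0.62, adjusted p 0.0540, or 0.0220 when blocked on the replicate number, and 0.000771 to 0.190 across 11 alternatives). MMP1, a collagenase, had -1.93 ± 0.57 (adjusted p 0.150). NFKBIA, a feedback inhibitor of NF-kappa B, had 0.22 ± 0.15, and the list median was -0.86. Of 12 genes that respond to cyclic AMP, 11 were tested and 0 called (5 at an unadjusted p under 0.05, 3 by DESeq2, 4 with the replicate block, all 4 lower), with a median of -0.82. The shares over all tested genes were 17.7%, 7.52% and, for lower calls with the block, 3.42%. The orphan nuclear receptor NR4A1 had 35.0, 26.3 and 13.1 CPM in RPMI plus B27 and 6.76, 8.43 and 4.56 CPM in DMEM plus fatty acids (-1.91 ± 0.39, adjusted p 0.0671, or 0.015 when blocked on the replicate number, and 8.85e-05 to 0.167 across 11 alternatives). Its relative NR4A3 had -1.80 ± 0.43 (adjusted p 0.0974, or 0.0255 when blocked, and 0.00194 to 0.272 across 11 alternatives), and DUSP1, a phosphatase that switches off MAP kinases, -1.66 ± 0.37 (adjusted p 0.0832, or 0.0357 when blocked, and 0.000631 to 0.193 across 11 alternatives). CREM, which encodes cyclic AMP response modulators, had the opposite sign (0.47 ± 0.16, adjusted p 0.199). Most genes of this list also respond to other signals.

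Among cytochrome P450 genes related to PTGIS or to sterol metabolism, 3 of 5 were tested, and 0 were called (2 at an unadjusted p under 0.05, 0 by DESeq2). CYP7B1, an oxysterol hydroxylase, had 1.31 ± 0.51 (adjusted p 0.246), or 0.87 without RPMI plus B27 replicate 1. CYP51A1, of sterol synthesis, had 1.25 ± 0.53 (adjusted p 0.278), or 0.47 without DMEM plus fatty acids replicate 1, which had 385 CPM beside 176 and 69.1 CPM in the others of that medium. CYP39A1 had 0.07 ± 0.28 (adjusted p 0.917), whose sign turned without replicate 3 of either medium (-0.047 and -0.062).

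Of 13 markers of stromal cells, 12 had a negative log2 fold change, where the median over all tested genes was 0.01. All 7 smooth muscle markers and all 6 tested epicardial markers were negative too. Of the 8 tested prostaglandin genes, 4 (PTGIS, PTGS1, PTGS2 and PTGES) were negative and 4 were positive. The 13 fibroblast and stromal markers summed to 8490, 5413 and 4353 CPM in RPMI plus B27 and 761, 1962 and 1812 CPM in DMEM plus fatty acids, without overlap and with RPMI plus B27 replicate 1 highest, as for PTGIS. Within DMEM plus fatty acids the order differed. The sum was lowest in replicate 1, PTGIS was lowest in replicate 3 (0.237 CPM), and PTGS1 and PTGES were highest in replicate 3 (0.326 and 0.237 CPM). All 13 were tested, and 6 were called, all 6 lower, where 1.07% of all tested genes were called lower. The median log2 fold change of the 13 was -2.95 (-5.81 to 0.31). The 6 called were COL1A1, DCN, FBN1, LOX, POSTN and COL3A1. DCN had 1006, 522 and 311 counts in RPMI plus B27 against 0, 18 and 20, and passed the filter through RPMI plus B27. With the replicate block 9 were called, where 4.78% of all tested genes were. Without RPMI plus B27 replicate 1, 2 or 3 there were 2, 0 and 7 stromal markers called, and without any of the DMEM plus fatty acids libraries 0. The 7 smooth muscle markers summed to 1621 to 2071 CPM in RPMI plus B27 and 361 to 1198 CPM in DMEM plus fatty acids, with 1 called (LMOD1, lower), while CNN1 had a log2 fold change of -1.28 ± 0.34 (adjusted p 0.124, or 0.0399 when blocked, and 0.00778 to 0.288 across 11 alternatives). TAGLN had -1.83 ± 0.65 (adjusted p 0.206), or -3.11 (adjusted p 0.0143, a call) without DMEM plus fatty acids replicate 2, and 0.0143 to 0.375 across 11 alternatives. The 9 epicardial markers summed to 1694 to 2242 and 800 to 1024 CPM, with 1 of 6 tested called (KRT8, lower, whose pseudogenes make its counts uncertain), while KRT18 had -1.04 ± 0.19 (adjusted p 0.0540, or 0.0418 when blocked, and 9.7e-05 to 0.169 across 11 alternatives) and TBX18 -2.18 ± 0.42 (adjusted p 0.0605, or 0.0271 when blocked, and 7.9e-05 to 0.199 across 11 alternatives). Most of the epicardial sum was KRT8 and KRT18. TBX18 stood at 4.98 ± 2.43 CPM in RPMI plus B27 and 1.10 ± 0.281 CPM in DMEM plus fatty acids, and WT1, UPK3B and MSLN were too low to be tested. With the replicate block, 3 smooth muscle and 3 epicardial markers were called, all lower. The calls of LMOD1 and KRT8 were lost whichever 1 of the 6 libraries was dropped (adjusted p 0.0511 to 0.0958 and 0.0543 to 0.123). The 7 endothelial markers summed to 37.2 to 241 CPM in RPMI plus B27 and 115 to 464 CPM in DMEM plus fatty acids, and most of that was KDR. KDR had 1.26 ± 0.76 (adjusted p 0.434, or 0.0245 when blocked, and 0.0245 to 0.665 across 11 alternatives, with 0.77 without RPMI plus B27 replicate 1 and 1.94 without its replicate 3). EMCN had -4.23 ± 1.01 (adjusted p 0.0960, or 0.0237 when blocked, and 0.000268 to 0.254 across 11 alternatives, with -2.80 without RPMI plus B27 replicate 1). The blocked fit thus called KDR higher and EMCN lower. TEK had -2.13 ± 0.51 (adjusted p 0.0960), and PECAM1, CDH5, VWF and CLDN5 were too low to be tested (at most 11 counts in a library). The 5 macrophage markers summed to at most 2.11 CPM, with CD68 at -0.37 ± 0.40 (-0.58 to -0.11 when single libraries were dropped) and PTPRC and AIF1 at 0 or 1 count in every library. Cardiomyocyte markers summed to 30390 to 37618 and 24401 to 34202 CPM, and 0 of 12 were called (3 at an unadjusted p under 0.05, 3 by DESeq2), with the myosin gene MYH6 at 0.86 ± 0.27 (adjusted p 0.166). The blocked fit called 2, both lower. They were the myosin gene MYH7, at -1.27 ± 0.39 (adjusted p 0.163, or 0.0359 when blocked, and 0.0124 to 0.379 across 11 alternatives), and the actinin gene ACTN2, at 2218 ± 474 and 1109 ± 380 CPM in the respective media (adjusted p 0.155, or 0.0494 when blocked, and 0.021 to 0.295 across 11 alternatives).

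PTGIS was also expressed relative to the stromal markers of the same library. There were 4.55, 2.96 and 1.71 PTGIS counts per 1000 stromal marker counts in RPMI plus B27 replicates 1, 2 and 3 and 0.679, 0.290 and 0.131 in DMEM plus fatty acids. The media did not overlap in this ratio, whose means were 3.07 ± 1.42 and 0.366 ± 0.282 (SD, n = 3 each), 8.39-fold apart, and 1 of the 13 markers, DCN, had a lower log2 fold change than PTGIS. Most of the stromal sum in every library was COL1A1, COL1A2 and COL3A1, with log2 fold changes of -2.72, -1.17 and -2.25. The ratio is thus mainly PTGIS per count of these 3 collagens, not per stromal marker in general. The ratio contains the PTGIS values by which the set was chosen and is a description only. The part of stromal cell number in the difference was not tested.

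**Figure D4:**
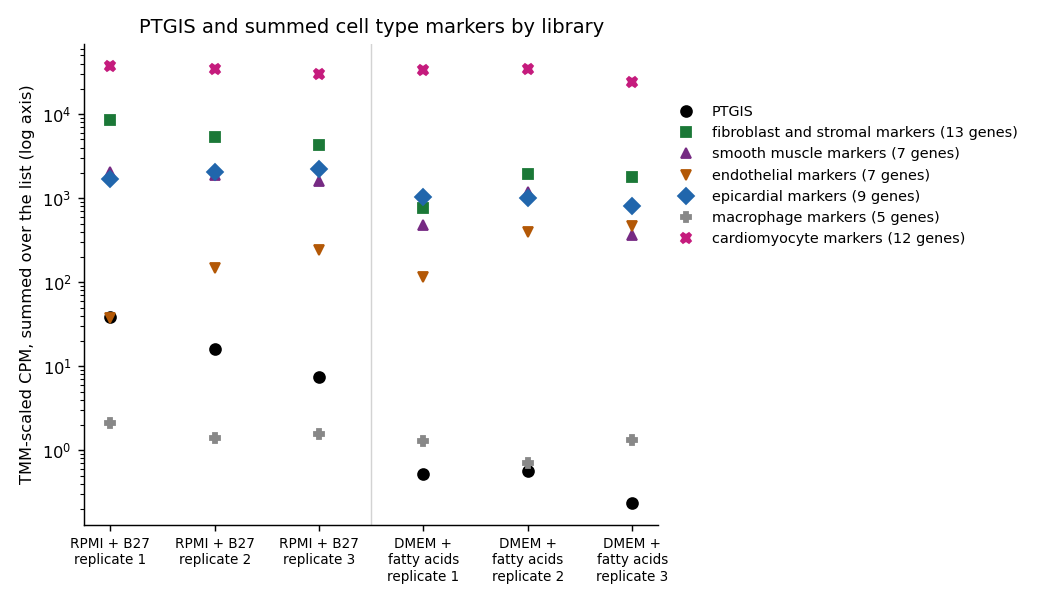
TMM-scaled CPM of PTGIS and of 6 marker lists, each summed over its genes, by library on a log axis. PTGIS runs from 38.6 to 7.46 CPM in RPMI plus B27 and lies at 0.237 to 0.568 CPM in DMEM plus fatty acids, and the summed stromal markers run from 4353 to 8490 CPM and from 761 to 1962 CPM.

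Over the 6 libraries, the genes whose log2 CPM followed PTGIS most closely, among 11428 tested genes averaging 5 CPM or more, were HOPX (an atypical homeodomain protein of the heart and other tissues, Pearson's r 0.999), MAPKAPK5 (a protein kinase, 0.996), UBE2H (a ubiquitin-conjugating enzyme, 0.995), EFEMP1 (the matrix protein fibulin-3, 0.995) and EPN2 (an endocytic adaptor, 0.995). The points share the 2 media, which fix most of each r, and the sizes of the differences varied. HOPX had 144.9, 102.3 and 68.8 CPM in RPMI plus B27 and 22.8, 22.2 and 17.5 CPM in DMEM plus fatty acids, and EFEMP1 had 48.0, 23.5 and 9.21 against 1.89, 1.94 and 0.978 CPM. MAPKAPK5 had a log2 fold change of -0.29. By the same measure over the same 6 libraries PTGS2 had an r of 0.981 with PTGIS, PTGES 0.913 and PTGS1 0.893, and PTGFR had -0.862, HPGD -0.805, PTGDS -0.682 and PTGES2 -0.674. PTGS2, PTGES, PTGS1, PTGFR and HPGD averaged under 5 CPM and so lay outside the ranking above. At 1, 2 and 0 counts in DMEM plus fatty acids, the PTGS2 values there rest largely on the prior count of 2. Each r contains the PTGIS values by which the set was chosen, and none was tested.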

How the data were processed

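The 6 RNA sequencing libraries, 3 per medium, were grouped by their titles. Each library's deposited file lists raw counts by gene symbol, which the authors had not normalized. STAR, HTSeq and the build hg38 are named without versions in the submitters' processing notes, and the annotation and strand setting are not given in the sources used here. Summary rows that name no gene were left out, and gene rows made up 84.4% to 87.2% of a library.

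The counts went into edgeR 4.0.16 (R 4.3.3) with filterByExpr (10 counts, 15 in total, the defaults), TMM scaling, a quasi-likelihood fit over all 6 libraries with medium as the term, and Benjamini-Hochberg adjustment over 16107 genes. SE is that implied by the F statistic. Alternatives were DESeq2 1.42.0 (Wald test), its size factors, total counts, no filter, a replicate block, and leaving out each library. Levels per length used merged exons of GENCODE release 29. Likeness used log2 CPM with a prior count of 2.

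The genes and lists were chosen with earlier results of these data known. Named by rule are the 10 genes, the called genes of each list or, below 3 calls, its smallest p values up to 3, and the 5 genes most like PTGIS. PTGDR, PTGIR, TBXAS1, PECAM1, CDH5, VWF, CLDN5, PTPRC, AIF1, PTGES3, NFKBIA, CREM, WT1, UPK3B, MSLN, COL1A2 and TNNT2 were chosen once their values were known.

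The labels share replicate numbers between media. Deviations from the medium means correlated at 0.32, 0.43 and 0.37 across genes for libraries with the same number, and at -0.25 to -0.14 for others. Deviations cancel out within a medium, so positive values for the same numbers push the others negative, and the latter add no separate evidence. The main fit and its calls did not use the numbers, and a fit blocked on them is given as an alternative. What a number stands for is not in the labels. The blocked p is printed for named genes whose call it changes.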

Additional observations from a re-analysis of the deposited data

How the results depend on the processing

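The number of called genes was 219 and changed with the settings: it was 539 with no filter on low counts, 1212 by the DESeq2 Wald test, 770 with the replicate block (551 lower and 219 higher), and 3 to 131 when 1 library was left out. Of the 7 tested prostaglandin genes other than PTGIS, the fit called 0, against 2 with no filter on low counts (PTGS1 and PTGS2, the latter at an adjusted p of 0.0143), 4 by DESeq2 and 2 with the replicate block, and 0 whichever 1 of the 6 libraries was dropped. Apart from the calls printed beside their genes, the block changed no call of the 10 genes. The log2 fold change of PTGIS ran from -5.96 to -4.74 over the fits that left out 1 library and was -5.35 with the block. Of 550 values of 50 genes under alternatives, 548 kept their direction. The exceptions were CYP39A1 without RPMI plus B27 replicate 3 (-0.047) and without DMEM plus fatty acids replicate 3 (-0.062), in a range of -0.062 to 0.25 over the fits that left out 1 library. Scaling by total counts moved the median of all genes from 0.01 to 0.12, and the share of lower calls from 172 of 219 to 128 of 202 genes. Depth limits the genes with 10 or fewer counts in each DMEM plus fatty acids library, which were PTGS2, PTGES, PTGER2 and PTGER4 among the 10 genes and, among others, PTGIR, TBXAS1, PLA2G4A, IL11 and ALOX15. The same alternatives for the lists and their genes were added after seeing the data.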
